A study of Rattus norvegicus with 15 samples.

Results

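Autophagy and lysosome genes of rat multifidus muscle were followed through 10 transcripts, Map1lc3a (gene 362245), Map1lc3b (64862), Sqstm1 (113894), Gabarapl1 (689161), Becn1 (114558), Ulk1 (360827), Lamp2 (24944), Ctsl (25697), Ctsb (64529) and Ctsd (171293). They were picked out by symbol from a table of 37991 genes. No cut-off on a measured value defined the set, which was drawn up with earlier results of these data known. Each symbol stood in the table once, and all 10 genes had enough counts to be tested, as did 17201 genes in all.

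Multifidus RNA was sequenced in 15 libraries of wild-type male Sprague Dawley rats aged 12 weeks, with 2 control libraries (no surgery), 2 surgery libraries, 4 pMT libraries, 4 pMT/VitD libraries and 3 VitD libraries. Surgery was a hemilaminectomy with ligation of the left L5 spinal nerve, so that injury and denervation act on the same muscle. The pMT group received mitochondria isolated from human plasma 2 weeks after surgery, 25 µg in 100 µL of buffer at each of 2 left paraspinal sites (50 µg in total), and tissue was taken another 2 weeks later. The surgery group received no treatment after surgery, and no group here received the buffer alone. Effects of the injection and its buffer thus cannot be told apart from those of the mitochondria. The VitD group received 150 µg (6000 IU) of cholecalciferol per site (300 µg in total), and the pMT/VitD group received both agents at these doses. The sources used here describe the operation and the days of treatment for the control, surgery and pMT groups only. The labels do not say that each library came from a separate rat, so p-values measure the spread between libraries, which may be partly technical.

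Autophagy encloses cytoplasm and organelles in a double membrane and delivers them to the lysosome, where acid hydrolases break them down. Ulk1 is the kinase that starts the process and Becn1 is a subunit of the lipid kinase complex that nucleates the membrane. Map1lc3a, Map1lc3b and Gabarapl1 are ubiquitin-like Atg8 proteins that are attached to the growing membrane, and Sqstm1 (p62) is a receptor that ties ubiquitinated cargo to them. Lamp2 is a membrane protein of the lysosome, Ctsb and Ctsl are cysteine proteases of its lumen, and Ctsd is its main aspartic protease. In skeletal muscle the pathway clears damaged mitochondria and contributes to protein loss after denervation, and cathepsins are also abundant in macrophages. A transcript level does not measure autophagic flux.

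The 4 stretches printed next are the bases before the start of Sqstm1, Lamp2 and Ctsl, genes called below between pMT/VitD and VitD, and of Ctsd, the cathepsin whose levels went another way. They come from RefSeq promoters on GRCr8, not the rn6 build of the counts, and capitals mark CACGTG, the core of the CLEAR element bound by TFEB, and GGGCGG, the core of an Sp1 box, on either strand.
Sqstm1 (chr10:35037751-35037940, minus strand): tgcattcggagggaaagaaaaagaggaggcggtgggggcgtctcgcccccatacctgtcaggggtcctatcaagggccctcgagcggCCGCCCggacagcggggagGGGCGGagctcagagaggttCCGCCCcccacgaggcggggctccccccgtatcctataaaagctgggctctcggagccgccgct
Lamp2 (chrX:122087674-122087863, minus strand): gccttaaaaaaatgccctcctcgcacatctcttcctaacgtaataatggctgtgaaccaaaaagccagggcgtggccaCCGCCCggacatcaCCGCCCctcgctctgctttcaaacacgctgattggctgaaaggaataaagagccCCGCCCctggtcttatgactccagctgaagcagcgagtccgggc
Ctsl (chr17:769914-770103, plus strand): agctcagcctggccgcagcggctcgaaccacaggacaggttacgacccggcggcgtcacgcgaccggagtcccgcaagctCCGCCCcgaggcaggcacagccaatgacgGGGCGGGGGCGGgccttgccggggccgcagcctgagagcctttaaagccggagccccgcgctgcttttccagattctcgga
Ctsd (chr1:206968822-206969011, minus strand): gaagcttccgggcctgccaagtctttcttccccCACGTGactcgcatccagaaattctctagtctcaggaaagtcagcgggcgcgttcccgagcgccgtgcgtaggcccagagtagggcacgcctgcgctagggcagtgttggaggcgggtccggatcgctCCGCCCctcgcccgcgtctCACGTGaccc

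Of the 10 genes, 7 had an entry in the table of promoter windows, which run from 250 bases before to 50 after each start. Map1lc3a, Becn1 and Ctsb had none. CACGTG was present in 1 of the 7 windows, that of Ctsd, at 157 and 10 bases before the start, against 6.42% of all 33469 windows. The copy nearest the start lay within TCACGTGA, the same core with its flanks, which 0.777% of all windows held. GGGCGG was present in 6 of 7 windows against 33.1% of all windows, and Map1lc3b was the exception. TGACTCA, the core letters of an AP-1 site, was present in the Map1lc3b window at 17 bases before the start, against 4.63% of all windows. TGTTTAC, the core letters of a FOXO site, was in none of the 7 windows, against 3.78% of all windows. All motifs were searched on both strands. These matches describe the letters of the windows, and factor binding was not measured. The windows of the 7 genes were 54.3% to 76.7% G and C, with a median over all windows of 51.7%.

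Library totals ran from 52342130 to 73557880 counts, so that the least abundant member still had at least 20.0 CPM in every library. CPM is a count scaled to a common library size with edgeR's TMM factors and is used for all values below unless TPM is named. Summed markers of muscle fibres, such as Ckm and Acta1, took 103263 to 179043 CPM over the libraries, and none of them was at 0 in a group. The sum was 152969 to 166149 CPM in control, 132610 to 135733 in surgery and 135023 to 148998 in pMT. It was 155954 to 179043 in pMT/VitD and 103263 to 141708 in VitD. The part of fibre content in the differences below was not tested. The pMT replicate 4 and the pMT/VitD replicate 4 stood apart. Over 5367 abundant genes, the standard deviation of the log2 ratio of pMT replicate 4 was on average 0.437 to the other pMT libraries and 0.310 to the pMT/VitD libraries. For pMT/VitD replicate 4 it was 0.430 to the other pMT/VitD libraries and 0.298 to the pMT libraries. Each thus lay nearer to the group it was not labelled with, and results that rest on these libraries are given with and without them. Leaving out libraries picked for this reason widens the gap between the pMT and pMT/VitD groups by selection, so calls gained that way are descriptions. VitD replicate 1 also differed from its group. The standard deviation of its log2 ratio was 0.370 to VitD replicate 2 and 0.497 to VitD replicate 3, against 0.156 between replicates 2 and 3. Nearness to other groups was not computed for the VitD libraries. Levels also followed gene length to a different degree in each library, with rank correlations of gene length and deviation from the mean level between -0.58 in pMT/VitD replicate 1 and 0.65 in pMT replicate 3.

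**Figure D1:**
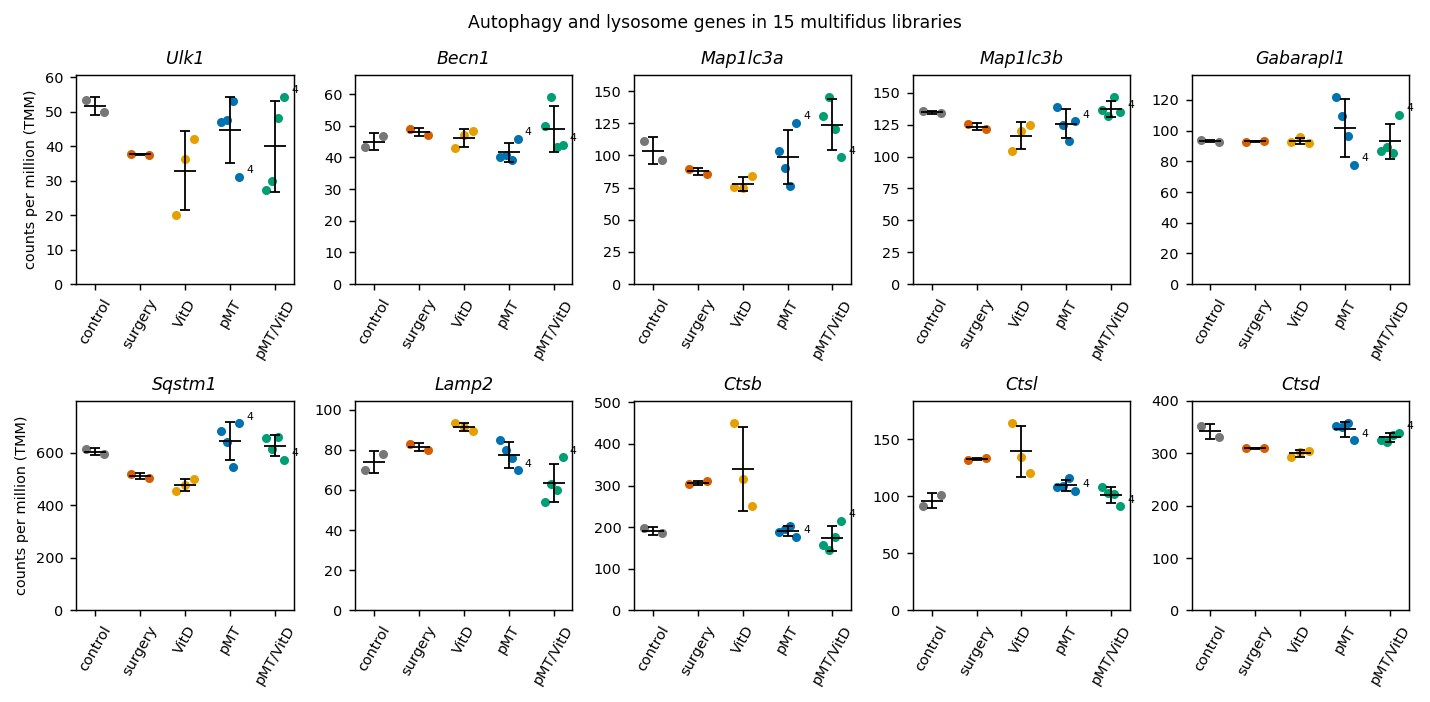
Level of each of the 10 genes (vertical axis, TMM-scaled CPM, from 0) in the 15 libraries by group (horizontal axis). Points are libraries, bars are the mean ± SD of a group, and the digit 4 marks replicate 4 of the pMT and pMT/VitD groups. The surgery and VitD libraries of Ctsb and Ctsl lie above those of every other group, while Sqstm1 is lower in them than in the control, pMT and pMT/VitD libraries.

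Expressed per length as the authors' TPM, Sqstm1 was the most abundant of the 10 transcripts, with a mean of 396 TPM over the 15 libraries. Ctsd followed with 223 TPM, Ctsb with 168 TPM, Map1lc3a with 137 TPM, Ctsl with 115 TPM and Map1lc3b with 101 TPM. Gabarapl1 had 77.2 TPM, Lamp2 38.5 TPM, Becn1 29.5 TPM and Ulk1 11.2 TPM. Neighbours in this order overlapped over the libraries, except Sqstm1 with Ctsd and Becn1 with Ulk1. Ctsb ranged widest, from 81.0 to 366 TPM, whereas Map1lc3a stayed between 118 and 162 TPM.

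The lysosomal proteases Ctsb and Ctsl had the lowest adjusted p-values of the 10 in the test across the 5 groups, and both were high in the surgery and VitD libraries and low in the control, pMT and pMT/VitD libraries. Lamp2 was lowest with pMT/VitD and was the other member called. By size of difference, the highest group mean was 1.96 times the lowest for Ctsb, 1.59 times for Map1lc3a, 1.57 times for Ulk1, 1.45 times for Ctsl and 1.44 times for Lamp2. In the test across groups, edgeR's quasi-likelihood F-test with Benjamini-Hochberg adjustment over all genes, 11.8% of the 17201 genes were called at an adjusted p under 0.05. The adjusted p was 0.00586 for Ctsb, 0.0241 for Ctsl and 0.0485 for Lamp2. Sqstm1 and Map1lc3a had adjusted p-values of 0.0747 and 0.0754 in the same test. The other 5 members, Map1lc3b, Gabarapl1, Becn1, Ulk1 and Ctsd, had adjusted p-values of 0.442 to 0.908. Without control replicate 1, surgery replicate 1, surgery replicate 2 or VitD replicate 2, 1 member was called in this test, and without both replicate 4 libraries 5 were. The share of all genes called in this test was not taken for these fits.

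Ctsb was measured at 199 and 185 CPM in the control libraries and at 303 and 309.9 CPM in the surgery libraries. It was at 188, 195, 203 and 177 CPM in the pMT libraries. In the pMT/VitD libraries it was at 157, 146, 176 and 215 CPM, and in the VitD libraries at 449, 317 and 252 CPM. Every surgery and VitD library was thus above every library of the other 3 groups, and the VitD libraries spread over a wider range than any other group. The group means were 339 ± 101 (SD, n = 3) for VitD, 306 ± 4.80 (n = 2) for surgery, 192 ± 9.60 (n = 2) for control, 191 ± 11.1 (n = 4) for pMT and 173 ± 30.1 (n = 4) for pMT/VitD. Neighbours in this order overlapped, except surgery and control.

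Ctsl followed the same order of high and low groups within a smaller range. It was at 91.8 and 101 CPM in the control libraries and at 132 and 133 CPM in the surgery libraries. With pMT it was at 108, 109, 116 and 105 CPM, and with pMT/VitD at 108, 103, 102 and 91.0 CPM. The VitD libraries had 164, 134 and 120.5 CPM. No library of the control, pMT or pMT/VitD groups reached the lowest VitD library. The table also lists Ctsll3, a gene related to Ctsl, at 10 counts or fewer, at most 0.172% of the Ctsl count of a library.

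Lamp2 was at 70.0 and 77.8 CPM in the control libraries, at 82.7 and 79.9 CPM in the surgery libraries and at 93.2, 91.1 and 89.3 CPM in the VitD libraries. The pMT libraries had 85.0, 79.9, 75.8 and 69.7 CPM. The pMT/VitD libraries had 54.0, 63.1, 60.01 and 76.2 CPM, the last of them replicate 4. The VitD libraries lay above all others, and 3 of the 4 pMT/VitD libraries lay below all others.

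Ctsd, the aspartic protease, kept within a narrow range and did not share the pattern of Ctsb and Ctsl. It was at 351 and 332 CPM in the control libraries, 310.2 and 309 CPM in the surgery libraries and 292, 302 and 305 CPM in the VitD libraries. With pMT it stood at 351, 349, 357 and 325 CPM, and in the pMT/VitD libraries at 325, 321, 336 and 339.6 CPM. The surgery and VitD libraries were the lowest, below every control, pMT and pMT/VitD library. In edgeR's quasi-likelihood test Ctsd was called in none of the comparisons made, and pMT was not compared with VitD. On the authors' TPM scale the order changed, with 214 TPM for control and 241 TPM for surgery. The ratio of Ctsb to Ctsd, which does not depend on how a library is scaled, was 0.571 and 0.579 in control and 1.001 and 1.027 in surgery. It was 0.547 to 0.582 in the pMT libraries, 0.466 to 0.647 in the pMT/VitD libraries and 0.846 to 1.57 in the VitD libraries. These ratios of TPM values did not overlap between the surgery or VitD libraries and the libraries of the other 3 groups. The ratio was not among the planned tests. It restates the levels of Ctsb and Ctsd, which had already separated these groups in opposite directions in CPM.

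Sqstm1 was at 615 and 594 CPM in the control libraries, at 520.2 and 503 CPM in the surgery libraries and at 456, 476 and 501 CPM in the VitD libraries. Levels with pMT were 684, 641, 545 and 712 CPM and those with pMT/VitD 658, 616, 659 and 573 CPM. The receptor was therefore lower in every surgery and VitD library than in any other library. This order depended on TMM scaling, as the means of the authors' TPM were 380.3 for control, 402 for surgery, 449 for pMT, 363 for pMT/VitD and 374 for VitD.

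Map1lc3a was at 111 and 96.3 CPM in the control libraries, 89.6 and 85.8 CPM in the surgery libraries and 75.4, 74.6 and 84.4 CPM in the VitD libraries. It was at 103, 90.3, 76.2 and 125 CPM in the pMT libraries. The pMT/VitD libraries had 131, 145, 121 and 98.5 CPM. Replicate 4 was the highest pMT library and the lowest pMT/VitD library. Map1lc3a was among the shorter genes by its counts per TPM, at percentile 10.8 of all genes with a value.

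Map1lc3b, the close relative of Map1lc3a, varied less. It was at 136 and 134 CPM in the control libraries, 126 and 121 CPM in the surgery libraries and 104, 120.0 and 125 CPM in the VitD libraries. Levels of 139, 125, 112 and 128 CPM were found with pMT and of 137, 132, 147 and 135 CPM with pMT/VitD. The lowest pMT/VitD library lay above the highest VitD library. The ratio of Map1lc3a to Map1lc3b in TPM was 1.29 to 1.94 in the pMT/VitD libraries and 1.10 to 1.27 in the VitD libraries. The table also lists LOC100359928, a gene described as like Map1lc3b, at 41 to 89 counts, at most 1.25% of the Map1lc3b count of a library, and reads could have been split between the 2 genes.

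Gabarapl1 had nearly equal levels in the control (93.7 and 92.6 CPM), surgery (92.9 and 93.3 CPM) and VitD libraries (92.3, 95.7 and 91.7 CPM). The pMT libraries had 122, 109.8, 96.5 and 77.8 CPM and the pMT/VitD libraries 86.4, 89.6, 85.5 and 110.2 CPM. The spread of both groups that received pMT included the level of the other 3 groups.

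Becn1 was at 43.2 and 46.8 CPM in the control libraries, 48.8 and 47.2 CPM in the surgery libraries and 43.0, 47.1 and 48.4 CPM in the VitD libraries. The pMT libraries had 40.2, 40.8, 39.3 and 46.0 CPM, all below both surgery libraries, and the pMT/VitD libraries had 49.8, 59.1, 43.3 and 44.1 CPM. Ulk1 was at 53.5 and 49.8 CPM in the control libraries and 37.7 and 37.5 CPM in the surgery libraries. It varied widely in the treated groups, with 47.0, 47.7, 53.2 and 31.1 CPM in the pMT libraries and 27.4, 29.9, 48.1 and 54.2 CPM in the pMT/VitD libraries. The VitD libraries had 20.0, 36.3 and 42.2 CPM. Ulk1 and Becn1, the genes of initiation and nucleation, overlapped between most groups and were called in no comparison of the quasi-likelihood test on all 15 libraries.

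The comparison of surgery with control asked what injury and denervation did to these genes. Between the surgery and control libraries, 4 members were higher and 5 lower without overlap, and Gabarapl1 overlapped. With 2 libraries in each group values can separate easily by chance. The share of all genes without overlap was not counted, here or in the comparisons below, so such counts only describe the members. None of the 10 was called, against 1.55% of all genes, and 2 had an unadjusted p under 0.05 by edgeR's quasi-likelihood test. Ctsl was higher by 0.46 on the log2 scale (SE 0.144, adjusted p = 0.115) and Ctsb by 0.68 (SE 0.227, adjusted p = 0.139). The other 8 differences ran from -0.46 for Ulk1 to 0.14 for Lamp2. The median of the 10 was -0.06, against -0.01 over all genes. Scaling by library size only moved the median of all genes by 0.27, to 0.25, and Sqstm1 (0.03), Map1lc3a (0.02), Map1lc3b (0.14) and Ctsd (0.12) then had the opposite sign, while all 4 stayed below that median. Gabarapl1, at 0 with TMM factors, was then at 0.27, above it. Over all genes 2923 had an unadjusted p under 0.05 and 266 were called. DESeq2 called 1 of the 10 members, beside 1001 of all 17201 genes. Limma voom with sample weights called 3 members, beside 4938 of all genes. A fit of these 4 libraries alone called 5 members, and its number over all genes was not taken.

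The summed level of macrophage markers moved with Ctsb and Ctsl. In surgery against control 11 of 12 markers were higher, 4 of them called, and 1 was lower. All 12 genes of the marker list (Csf1r, Adgre1, Cd163, C1qa and others) were found, none was at 0 in a group, and their summed level was 320.2 to 338 CPM in the control libraries and 621 to 629 CPM in the surgery libraries. It was 271 to 354 CPM with pMT, 249 to 361 CPM with pMT/VitD and 532 to 836 CPM with VitD. The summed level of the 7 fibroblast markers was 2640.2 to 2663 CPM in control and 4653 to 4682 CPM in surgery, with 2606 to 3073 CPM for pMT, 1955 to 2859 CPM for pMT/VitD and 3877 to 7414 CPM for VitD. In surgery against control 6 fibroblast markers were higher and 1 was lower, and none was called. The part of these cells in the differences of Ctsb and Ctsl was not tested, and in bulk tissue fewer cells of a type and less RNA per cell cannot be told apart.

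**Figure D2:**
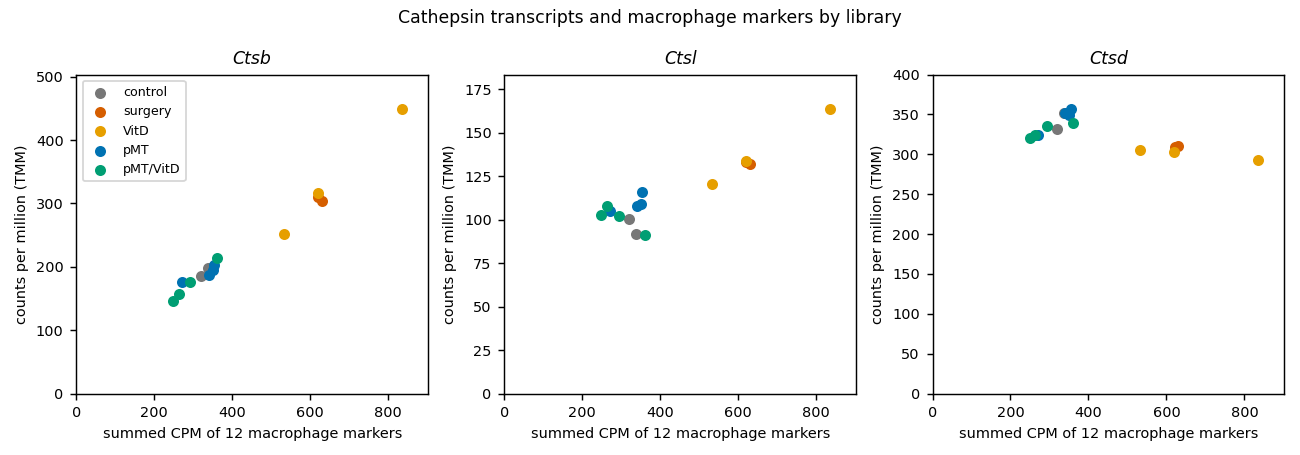
Levels of Ctsb, Ctsl and Ctsd (vertical axes, TMM-scaled CPM, from 0) against the summed level of 12 macrophage markers (horizontal axis, same unit) in the 15 libraries, coloured by group. Ctsb runs from 146 CPM in a pMT/VitD library to 449 CPM in a VitD library along with the markers, while Ctsd stays between 292 and 357 CPM.

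The comparison of pMT with surgery set operated muscle injected with mitochondria in buffer against operated muscle without an injection. All 4 pMT libraries were below both surgery libraries for Ctsb, Ctsl and Becn1 and above both for Sqstm1 and Ctsd, without a share over all genes to set beside this. None of the 10 members was called, against 1.94% of all genes, while 3 had an unadjusted p under 0.05 by edgeR's quasi-likelihood test. Ctsb was lower by 0.69 on the log2 scale (SE 0.191, adjusted p = 0.0896), Ctsl was lower by 0.28 (SE 0.123, adjusted p = 0.323) and Sqstm1 was higher by 0.33 (SE 0.132, adjusted p = 0.249). The other 7 ran from -0.21 to 0.25. DESeq2 called 1 member, beside 747 of all 17201 genes, and voom called 6 members, beside 6480 of all genes. By the DEG rule, which requires a 2-fold difference together with p below 0.05 before adjustment in edgeR's exactTest, 4.03% of 16609 genes were DEGs, and none of the 10 members was. Ctsb came nearest in this test, with a log2 fold change of -0.70 (adjusted p = 2.14e-05 by exactTest), which is under a 2-fold change. On the authors' TPM 4 members turned in sign without a call, Ctsd (-0.01), Map1lc3a (-0.02), Gabarapl1 (-0.06) and Map1lc3b (-0.15), and the median of all genes was -0.09. With library size only Map1lc3b and Gabarapl1 turned. The 12 macrophage markers were all lower in pMT than in surgery, 7 of them called, with a median of -0.89.

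Between VitD and surgery no member was called and 0% of all genes were. No member had an unadjusted p under 0.05 in edgeR's quasi-likelihood test, against 139 genes overall. The fitted differences ran from -0.20 for Ulk1 to 0.17 for Lamp2. DESeq2 and the test on TPM called 1 gene each over the whole table and voom called 405, none of them a member.

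The combined treatment was set against surgery, and Ctsb fell. It was lower by 0.82 on the log2 scale in pMT/VitD (SE 0.191, adjusted p = 0.0213 by edgeR's quasi-likelihood test), 1 member called against 7.44% of all genes. Ctsl and Lamp2 were also below both surgery libraries in all 4 pMT/VitD libraries, with log2 fold changes of -0.39 (adjusted p = 0.0651) and -0.36 (adjusted p = 0.0968) that were not called. Map1lc3a and Sqstm1 were above both surgery libraries, with 0.50 (adjusted p = 0.111) and 0.29 (adjusted p = 0.186) that were not called. The sign for Sqstm1 depended on scaling, with -0.04 by library size only and -0.15 on the authors' TPM. The other 5 members ran from -0.002 to 0.16, and 4 of them, Map1lc3b (-0.17), Ctsd (-0.23), Ulk1 (-0.22) and Becn1 (-0.30), turned in sign when library size alone set the scale, which put the median of all genes at -0.32. The same 4 turned on TPM. Without both replicate 4 libraries, 3 members were called, Map1lc3a (0.59, adjusted p = 0.0101), Lamp2 (-0.47, adjusted p = 0.00653) and Ctsb (-0.95, adjusted p = 0.00448), while 20.1% of all genes were. The call of Ctsb was lost without surgery replicate 1, surgery replicate 2, pMT/VitD replicate 1 or pMT/VitD replicate 2. All 12 macrophage markers were lower in this comparison and 11 were called, with a median over the list of -1.08.

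The clearest differences lay between the groups that received VitD with and without pMT. Here 5 of the 10 members were called, while 21.9% of all genes were. Ctsb, Lamp2 and Ctsl fell in pMT/VitD relative to VitD, and Map1lc3a and Sqstm1 rose. By edgeR's quasi-likelihood test Ctsb fell by 0.97 on the log2 scale (SE 0.172, adjusted p = 0.00194), Lamp2 fell by 0.53 (SE 0.113, adjusted p = 0.00546) and Ctsl fell by 0.47 (SE 0.109, adjusted p = 0.00866). Map1lc3a rose by 0.67 (SE 0.161, adjusted p = 0.0105) and Sqstm1 by 0.39 (SE 0.116, adjusted p = 0.0269). All 5 were without overlap between the 4 pMT/VitD and the 3 VitD libraries, and the share of all genes without overlap was not counted. Map1lc3b was higher by 0.24 (SE 0.1004, adjusted p = 0.101) without a call, and the remaining 4 members ran from -0.005 for Gabarapl1 to 0.28 for Ulk1. DESeq2 called 7 members, beside 4643 of all 17201 genes. Voom, which weighted VitD replicate 1 at 0.203, called 6 members, beside 8406 of all genes.

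The falls of Ctsb, Lamp2 and Ctsl kept their direction and call with library size only, on TPM and with the length trend removed. Map1lc3a kept its direction but not always its call, and Sqstm1 did not always keep either. Scaling by library size only moved the median of all genes in this comparison by -0.34. Sqstm1 was then at 0.05 and Map1lc3a at 0.31, neither called, and Map1lc3b was at -0.10. On the authors' TPM the median of all genes was -0.23, Map1lc3a was at 0.22 without a call, Sqstm1 at -0.05 and Map1lc3b at -0.19. Becn1, at 0.09 with TMM factors, was called lower on TPM (-0.35, adjusted p = 0.0476 by limma), below the median of all genes. Ulk1 and Ctsd, higher with TMM factors, were also below 0 under both scalings. Relative to the median of all genes, Map1lc3a was higher by 0.66 with library size only and by 0.45 on TPM, and Sqstm1 by 0.39 and 0.18. With the trend on gene length removed, Map1lc3a was at 0.41 and Sqstm1 at 0.34, both called. Without both replicate 4 libraries the same 5 members were called, against 32.0% of all genes. Macrophage markers were lower in pMT/VitD than in VitD, 11 of 12 of them called, with a median of -1.19, and 6 of 7 fibroblast markers were called lower.

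**Figure D3:**
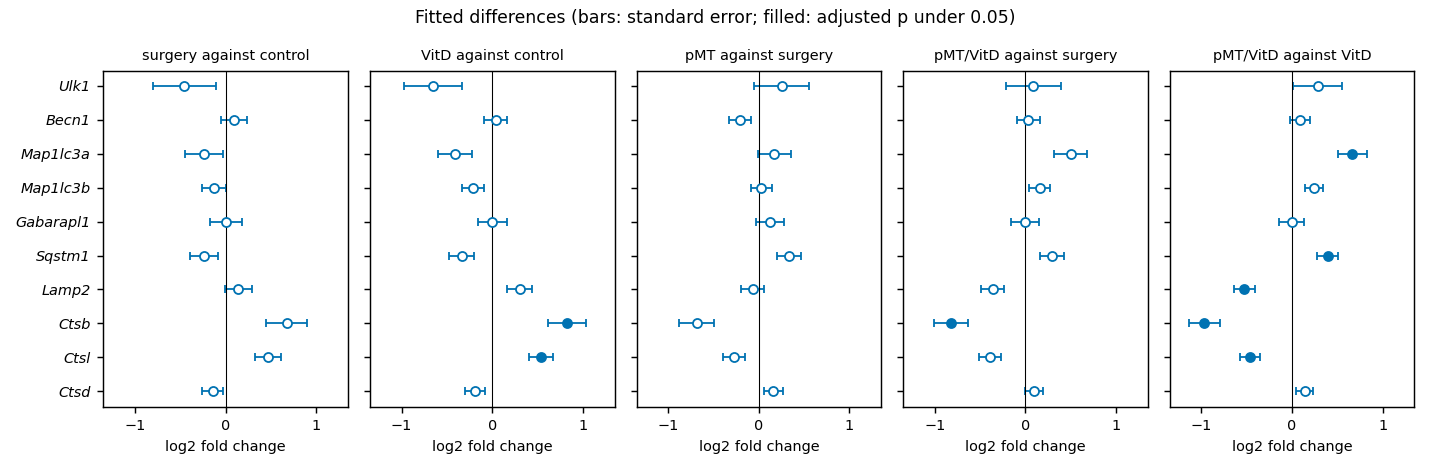
Fitted log2 fold changes of the 10 genes (horizontal axes) in 5 comparisons, first group minus second, from the quasi-likelihood test on TMM-scaled counts. Bars are standard errors and filled points have an adjusted p under 0.05, which 5 genes reach for pMT/VitD against VitD, 2 for VitD against control and 1 for pMT/VitD against surgery. Sqstm1 is near 0 or below it in the last 2 panels when library size or TPM sets the scale.

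VitD was next set against control, the libraries without surgery. Ctsl rose by 0.54 on the log2 scale (SE 0.133, adjusted p = 0.0264) and Ctsb by 0.82 (SE 0.212, adjusted p = 0.0303), 2 members called by edgeR's quasi-likelihood test against 8.67% of all genes. Lamp2 was higher by 0.30 (SE 0.136, adjusted p = 0.177), Map1lc3a lower by 0.41 (SE 0.189, adjusted p = 0.188) and Sqstm1 lower by 0.34 (SE 0.136, adjusted p = 0.134), and none of these was called. The other 5 ran from -0.65 for Ulk1, whose standard error was 0.315, to 0.04 for Becn1. With library size only, which moved the median of all genes by 0.28, Map1lc3b (0.07) and Ctsd (0.10) changed sign. Both calls were lost without control replicate 1, control replicate 2, VitD replicate 1 or VitD replicate 2. Macrophage markers rose in VitD relative to control, 8 of 12 of them called.

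No member was called between control and either group that received pMT. Between pMT and control no member and 0% of all genes were called by edgeR's quasi-likelihood test, 528 genes and no member had an unadjusted p under 0.05, and the members ran from -0.21 to 0.19. Only Ctsl was without overlap, higher in the 4 pMT libraries by 0.19 (adjusted p = 1). Between pMT/VitD and control no member and 0% of all genes were called, 496 genes and no member had an unadjusted p under 0.05, and the members ran from -0.37 for Ulk1 to 0.26 for Map1lc3a, all with overlap. DESeq2 called no gene in either comparison, while voom called 231 genes (no member) and 1865 genes (2 members). On the authors' TPM 4 members turned in sign against the TMM-scaled fit in each of these comparisons, and none was called. In these comparisons with 2 control libraries the standard errors of the members ran from 0.102 to 0.2998.

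Between pMT/VitD and pMT no member and 0% of all genes were called by edgeR's quasi-likelihood test, with 1737 genes at an unadjusted p under 0.05, among them 3 members. Map1lc3a was higher by 0.33 (SE 0.147, adjusted p = 0.489), Becn1 was higher by 0.24 (SE 0.102, adjusted p = 0.479) and Lamp2 was lower by 0.29 (SE 0.105, adjusted p = 0.452). All 10 members overlapped between the 2 groups. This result depended on the replicate 4 libraries, which had been picked out because each lay nearer to the other of these 2 groups. Without both of them 4 members were called, against 18.3% of all genes, namely Map1lc3a (0.56, adjusted p = 0.00760), Lamp2 (-0.44, adjusted p = 0.00654), Gabarapl1 (-0.32, adjusted p = 0.0282) and Becn1 (0.35, adjusted p = 0.0362). The libraries left had length correlations of 0.04, 0.54 and 0.65 for pMT and of -0.58, -0.53 and -0.27 for pMT/VitD. The part of gene length in these calls was not tested. With all 15 libraries DESeq2 called 89 genes and no member, and voom, which weighted pMT replicate 4 at 0.218 and pMT/VitD replicate 4 at 0.215, called 6617 genes and 6 members. On the authors' TPM Becn1 was at -0.02 and Map1lc3b at -0.13, both turned in sign.

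Whether the difference that pMT made depended on VitD was tested as an interaction, the difference of pMT/VitD from VitD minus that of pMT from surgery. No member and 0% of all genes were called by edgeR's quasi-likelihood test, and 888 genes had an unadjusted p under 0.05. Lamp2 was the only member among them, with -0.46 on the log2 scale (SE 0.172, adjusted p = 0.899). Without both replicate 4 libraries Lamp2 was called with -0.60 (adjusted p = 0.0437), 1 member against 1.89% of all genes. The same selection of libraries enters this value. DESeq2 called no gene, and voom called 5417 genes and 6 members.

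The comparisons of pairs of groups share libraries, the surgery, control and pMT/VitD libraries in 4 of them each and the pMT and VitD libraries in 3 each. The interaction uses the libraries of all groups except control again, so that a library with an unusual level enters several values. The rise of Ctsb in VitD and its fall in pMT/VitD relative to VitD both contain VitD replicate 1, the highest library at 449 CPM. Without it, the fall in pMT/VitD relative to VitD remained called.

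Beyond the 10 genes, 157 others were grouped in 9 lists by role, and 155 of them could be tested. In surgery against control 4 list genes rose and 1 fell, beside 1.55% of all genes called. The counts were 8 and 1 without both replicate 4 libraries, 5.81% of the list genes beside 4.17% of all genes. The phospholipase Pla2g15 rose by 1.02 (SE 0.155, adjusted p = 0.00775), the beta-galactosidase Glb1 by 0.91 (adjusted p = 0.0268) and the aspartic protease Ctse by 1.40 (adjusted p = 0.0360). The legumain gene Lgmn rose by 0.72 (adjusted p = 0.0472) and was named after its value was seen. Atg4d, one of the proteases that process Atg8 proteins, fell by 0.53 (SE 0.122, adjusted p = 0.0456). All 14 genes of cathepsins and their inhibitors were higher in surgery, 2 of them called, with a median of 0.41 against -0.01 over all genes. This list includes Cst3, Ctsh and Ctsa, its most abundant genes. With library size only, 12 list genes rose and 0 fell, and on the authors' TPM 9 rose and 0 fell. The median of the cathepsin list was then 0.67 and 0.62. On TPM 735 of all 17201 genes were called. The number of all genes called with library size only was not taken, here or in the list comparisons below.

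In pMT against surgery 7 list genes fell and none rose, beside 1.94% of all genes called. The count was also 7 lower without both replicate 4 libraries, beside 3.15% of all genes. It was 3 on the authors' TPM, beside 311 of all 17201 genes. Pla2g15 fell by 0.78 (SE 0.129, adjusted p = 0.00757), Ctse by 1.39 (adjusted p = 0.0122) and Lgmn by 0.74 (adjusted p = 0.0184). Of the 14 cathepsins and inhibitors 13 were lower, 4 of them called, with a median of -0.35 against 0.02 over all genes. None of the 12 genes of Atg8 conjugation, the 19 of initiation and nucleation, the 14 receptors, the 14 of fusion with the lysosome, the 16 tested subunits of the vacuolar ATPase and the 14 of lysosome biogenesis and sorting was called.

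In pMT/VitD against surgery 6 list genes rose and 16 fell, beside 7.44% of all genes called. They were 15 and 28 without both replicate 4 libraries, 27.7% of the list genes beside 20.1% of all genes. The lower genes were led by Pla2g15 (-0.93, adjusted p = 0.00164), Glb1 (-0.96, adjusted p = 0.00271) and Lgmn (-0.78, adjusted p = 0.00589). Of the falls, 7 were among 14 cathepsins and inhibitors and 7 among 33 lysosomal hydrolases. The higher genes were led by Atg4d (0.63, adjusted p = 0.00433), Mcoln1, a calcium channel of the lysosome (0.40, adjusted p = 0.0302), and Rab7a, a GTPase of late endosomes (0.47, adjusted p = 0.0347). These rises depended on scaling. With library size only, 0 list genes were called higher and 55 lower, and on the authors' TPM 0 were called higher and 45 lower, with Atg101 and Mcoln1 turned in sign. On TPM 2889 of all 17201 genes were called.

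In pMT/VitD against VitD 15 list genes rose and 27 fell, together 42 of 155, beside 21.9% of all genes. Leaving out both replicate 4 libraries gave 23 rises and 36 falls, 38.1% of the list genes beside 32.0% of all genes. Atg4d rose by 0.81 (SE 0.0945, adjusted p = 0.000230), Atg101, a subunit of the Ulk1 complex, by 0.47 (adjusted p = 0.00316) and Mcoln1 by 0.42 (adjusted p = 0.00463). Glb1 fell by 1.03 (SE 0.133, adjusted p = 0.000342), Lgmn by 0.95 (adjusted p = 0.000402) and Pla2g15 by 0.80 (adjusted p = 0.000604). The falls included 9 of 14 cathepsins and inhibitors, with a median of -0.55, and 10 of 33 hydrolases, with a median of -0.23, against 0 over all genes. The rises were spread over 7 lists, with 4 of 19 lysosomal membrane proteins, 3 of 19 initiation and nucleation genes and 2 of 12 genes of Atg8 conjugation. With library size only, which moved the median of all genes by -0.34, 1 list gene was called higher and 73 lower. On the authors' TPM 0 were called higher and 68 lower, beside 5507 of all 17201 genes. Of the 42 calls, 5 turned in sign on TPM, those of Optn, Lamtor1, Lamtor5, Tfeb and Gga1, named after their values were seen. The falls of cathepsins and inhibitors numbered 12 and 13 of 14 under these scalings.

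In VitD against control 13 list genes rose and 3 fell, beside 8.67% of all genes called. The rises included 7 of 33 hydrolases and 4 of 14 cathepsins and inhibitors. The counts were 38 and 1 with library size only. They were 22 and 0 on the authors' TPM, beside 2086 of all 17201 genes. When both replicate 4 libraries were left out, 17 rose and 8 fell, 16.1% of the list genes beside 15.1% of all genes. Pla2g15 rose by 0.90 (adjusted p = 0.00462), Glb1 by 0.98 (adjusted p = 0.00562) and Lgmn by 0.89 (adjusted p = 0.00659). Atg4d fell by 0.70 (adjusted p = 0.00399), Wipi2, which binds phosphoinositides on the forming membrane, by 0.48 (adjusted p = 0.0369), and the receptor gene Optn by 0.41 (adjusted p = 0.0461). No list gene was called in the comparisons of VitD with surgery, of pMT or pMT/VitD with control, of pMT/VitD with pMT or in the interaction by edgeR's quasi-likelihood test. Those comparisons called no gene of the table at all. Without both replicate 4 libraries 17 list genes rose and 17 fell in pMT/VitD against pMT, 21.9% of them beside 18.3% of all genes, among them 8 of 19 lysosomal membrane proteins and 7 of 16 subunits of the vacuolar ATPase. In the interaction 1 list gene was then called, Lamtor2 (0.80, SE 0.145, adjusted p = 0.0312 by the same test), named after its value was seen, beside 1.89% of all genes. Many hydrolases and cathepsins of these lists are also expressed by macrophages, whose markers are given above.

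**Figure D4:**
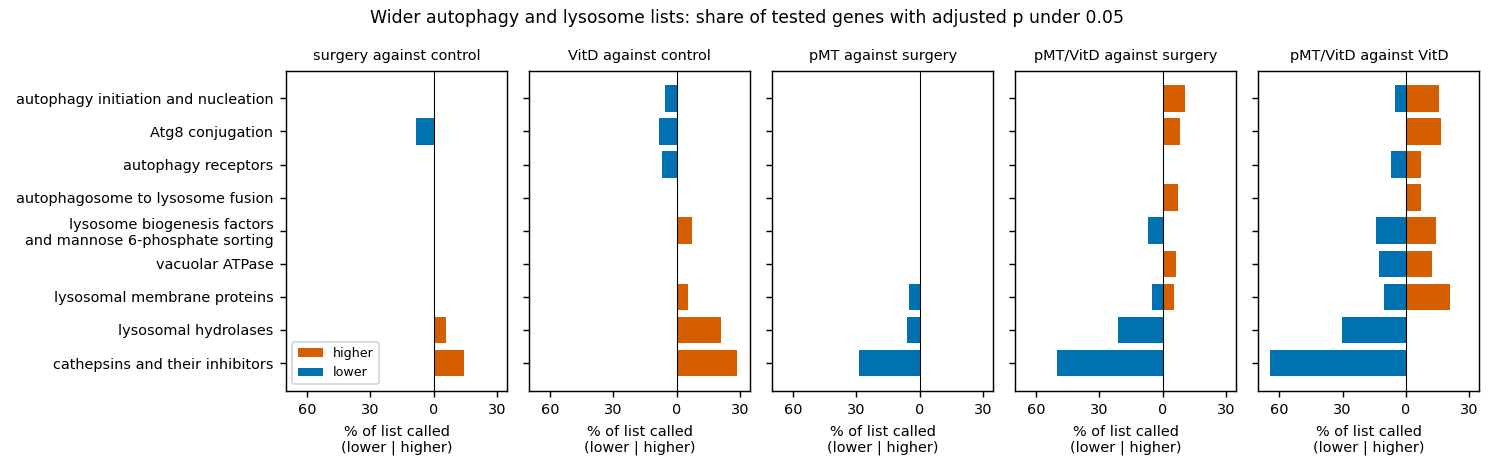
Share of the tested genes of each of the 9 lists (horizontal axes, percent, lower to the left of 0 and higher to the right) with an adjusted p under 0.05 in 5 comparisons. Cathepsins and their inhibitors reach 9 of 14 genes lower in pMT/VitD against VitD, while the 2 genes of Atg8 conjugation called there lie to the right of 0. The plot shows TMM scaling, and with library size only 1 list gene in all was called higher there.

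The genes whose levels followed a member most closely over the 15 libraries were taken by Pearson's correlation of log2 CPM, as a description of libraries that share groups, scaling and length trends. For Ctsb they were Dlk1 (r = 0.992), Grn (0.992) and Col3a1 (0.991), and for Ctsl Stard7 (0.979), Tspan18 (0.965) and Igsf10 (0.964). For Lamp2 they were Itgav (0.963), Mcmbp (0.962) and Reep3 (0.944). Sqstm1 was followed by Psmf1 (0.978), Nfkbia (0.975) and Mettl11b (0.954), and Map1lc3a by Ndufb6 (0.990), Dph3 (0.985) and Prdx5 (0.985). For Ulk1 the nearest were Rere (0.978), Cd24 (0.978) and Arhgef11 (0.977), and for Ctsd Cdk18 (0.955), Wipf3 (0.951) and Usp10 (0.949). Map1lc3b was nearest to Rps6kb2 (0.937), Becn1 to Snx5 (0.915) and Gabarapl1 to Rab20 (0.873).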

How the data were processed

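Paired-end reads of multifidus RNA were processed by the authors with Trimmomatic (0.38) for trimming, HISAT2 (2.1.0) for alignment to rn6, SAMtools (1.9) for sorting and StringTie (2.1.3b) for quantification against RefSeq genes. They deposited raw read counts per gene without normalization, TPM values, and FPKM values that were not used here. Strand and reads with several alignments are not stated, so near copies and overlapping genes are uncertain. All columns of library values were mapped to labelled samples.

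Tests used R 4.3.3, edgeR 4.0.16, limma 3.58.1 and DESeq2 1.42.0. Counts of all 15 libraries were scaled with TMM factors, filtered with filterByExpr and fitted by group (glmQLFit, robust). Calls required an adjusted p (Benjamini-Hochberg, 17201 genes) under 0.05. SE is the standard error of a log2 fold change. The DEG rule used edgeR's exactTest on the surgery and pMT libraries. TPM served for levels between genes and as an alternative, log2(TPM + 1) with limma, chosen after seeing the data. A length trend was estimated from counts per TPM (lowess span 0.3).

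All 10 members are named. Folds are printed where a member was called or had an unadjusted p under 0.05, and otherwise as ranges. Of the wider lists at most 3 higher and 3 lower called genes per comparison are named by adjusted p, plus up to 3 abundant genes of a list. For each member, up to 3 nearest genes are named. Markers were fixed lists. The members and lists were chosen with earlier results of these data known.

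Alternatives were library size or RLE scaling, other count filters, DESeq2, voom with sample weights, removal of a length trend, a replicate block, fits of 2 groups, and leaving out libraries. On simulated counts for pMT/VitD against VitD with 200 changed genes among 16903, the test recovered 99% of 4-fold and 70% of 2-fold changes, with 6 false calls. The simulated counts had no length trend and no libraries nearer to another group, so these rates need not hold for the measured data. Changes under 2-fold, such as those of the members in the main fit, were not simulated. No 2 libraries of a group agreed within sampling noise. Totals of 52342130 to 73557880 counts per library limit counting error only.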

Additional observations from a re-analysis of the deposited data

Results flagged for a closer look

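One level stood away from the rest of its group. Gabarapl1 was at 110.2 CPM in pMT/VitD replicate 4, while the other pMT/VitD libraries lay between 85.5 and 89.6 CPM, a gap that took 0.836 of the range of the group just above Dixon's critical value for 4 samples. It was the only one of 20 sets of 4 libraries checked, and chance gives about 1 in 20. The same library stood apart over all abundant genes, and pMT replicate 4 had the lowest Gabarapl1 level of its group, 77.8 CPM.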

How the results depend on the processing

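Each value was recomputed under up to 26 alternative settings. Of 944 recomputed values, 811 kept their direction and side of the threshold (counts within 1.5 times), 28 lost a call, 50 gained one, 6 reversed and 49 counts moved; where no value shows the cause, it was not tested. Of the 10 members, library size only gave 1 called for surgery against control, 3 for pMT/VitD against surgery and 3 for pMT/VitD against VitD, with Sqstm1 at -0.0389 in pMT/VitD against surgery and Map1lc3b at -0.10 in pMT/VitD against VitD. Removing the length trend gave 5 in the test of any group, 3 in pMT/VitD against surgery and 4 in VitD against control. DESeq2 gave 6, 3 and 4 in these tests, and 1 each in surgery against control and pMT against surgery. Of all 17201 genes it called 2249 for pMT/VitD against surgery and 2471 for VitD against control. It called 1001 for surgery against control and 747 for pMT against surgery. Voom with sample weights gave 10 for any group. It gave 3 for surgery against control (4938 of all genes), 6 for pMT against surgery (6480) and 5 for pMT/VitD against surgery (6800). It gave 6 for pMT/VitD against pMT (6617) and 2 for pMT/VitD against control (1865). It gave 7 for VitD against control (6447) and 6 for the interaction (5417). TPM with limma, added after seeing the data, gave 3 for pMT/VitD against surgery, where it called 2889 of all genes. It reversed Sqstm1 there (-0.15) and in pMT/VitD against VitD (-0.0463), Becn1 in pMT/VitD against pMT (-0.0168) and Map1lc3b in pMT/VitD against VitD (-0.19). In the last comparison it also called Becn1 lower (-0.35). Fits of only the 2 groups compared gave 5 for surgery against control, 1 for pMT against surgery, 3 for pMT/VitD against VitD and 0 for VitD against control. Leaving out libraries gave 1 to 5 members for any group, 0 to 2 for surgery against control, 0 to 1 for pMT against surgery, 0 to 3 for pMT/VitD against surgery, 4 to 5 for pMT/VitD against VitD, 0 to 3 for VitD against control, 0 to 4 for pMT/VitD against pMT and 0 to 1 for the interaction. Among these settings the number of all genes called was taken for DESeq2, voom, TPM and the fit without both replicate 4 libraries. It was not taken for the others or for the test of any group. In the fit of 2 groups the calls of Sqstm1 and Ctsl in pMT/VitD against VitD were lost. That of Sqstm1 was also lost without pMT/VitD replicate 1, 2 or 3 or VitD replicate 1 or 2.

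The replicate numbers are shared between groups. Deviations of same-numbered libraries from their group means correlated from -0.50 to 0.17 over 24 pairs, 2 of them over 0.1. These values gave no sign that the numbers pair the samples. With means of so few libraries they cannot exclude it. The replicate block gave 1 member called for any group, 0 for pMT/VitD against surgery and 1 for VitD against control.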
